A study of Drosophila melanogaster with 12 samples.

Results

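Testes in which the Mediator subunit gene Med22 was knocked down (Med22RNAi) were compared with wild-type testes, on 6 of the 12 arrays of the series, 3 per genotype. All 18769 Drosophila probe sets of the Affymetrix array entered the comparison. Of these, 13647 carry exactly 1 gene symbol and stand for 11982 genes, each of them represented in all counts of genes and lists by its probe set of highest mean over the 12 arrays. The Med22RNAi males, labelled bam-gal4; Med22RNAi, carried UAS-Dicer2, Bam-Gal4 and a hairpin against Med22, so that knockdown was driven in late spermatogonia and spermatocytes and not in the somatic cells of the testis. The control males are labelled y,w mutant and are called wild type here. The methods of the study name the control arrays red,e, the labels were followed, and the strain of the control is not settled. The control label holds neither driver nor hairpin. All flies were 1-day-old adults, and testes were dissected free of seminal vesicles and accessory glands. The other 6 arrays, of aly2/aly5P and sa1/sa2 mutant testes, shared in the estimate of the spread and served for a few direct comparisons. The labels of all arrays except those of Med22RNAi, y,w included, refer to samples deposited earlier, so knockdown, strain background and set of arrays cannot be told apart. The array has no probe set under the symbol of Med22 itself, and the depth of the knockdown was not measured here.

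Mediator is a large protein complex that carries signals from transcription factors bound to DNA to RNA polymerase II. In the fly male germ line, spermatogonia divide, become spermatocytes and then spend a long G2 phase transcribing most of what meiosis and sperm construction will use. Many of those transcripts come from testis-specific copies of genes that the rest of the body uses in another form, such as subunits of pumps, enzymes of glycolysis and carriers through the nuclear pore. Testes of Med22RNAi males are described as holding spermatocytes that stop before the meiotic divisions.

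Values are log2 GCRMA signals, and all levels below are on that scale. A change was called where limma gave an adjusted p under 0.05 and the groups differed by at least 4-fold, a log2 fold change of 2. Of all probe sets, 1693 (9.02%) were lower and 2126 (11.3%) were higher in Med22RNAi testes. Among genes, 1463 (12.2%) were lower and 1752 (14.6%) were higher, and against these shares the counts of list members on the deposited scale are to be read. Array medians lay at 4.15 to 4.25 in Med22RNAi and at 3.66 to 3.80 in wild type. Setting all medians equal shifts every log2 fold change by -0.46, and the share of calls that are higher then goes to 39.5%, against 55.7% on the deposited scale and 48.3% after a further quantile normalization. With equal medians 1834 genes (15.3%) were lower and 1135 (9.47%) higher, the shares for counts given at equal medians. Modest rises therefore rest on the scale, and each list below is given with its count of rises at equal medians where that count differs by more than 1.5 times. Falls are mostly counted on the deposited scale only. With equal medians more falls can be called, such as 2 instead of 0 for exosome and mRNA decay genes and 2 instead of 1 for aminoacyl-tRNA synthetases. The median log2 fold change over all genes was 0.00, and it was 0.48 over those that were not under a log2 level of 3 on all 6 arrays. The summed signal of 6 genes listed as spermatid markers was lower, at 14.53 to 15.04 in Med22RNAi and 16.17 to 16.39 in wild type on the log2 scale. Of these fzo, Tpl94D and ProtB were called. The study describes spermatid differentiation genes as transcribed already in spermatocytes, so this sum does not count spermatids. By in situ hybridization the study scored fzo as off in Med22RNAi spermatocytes. The summed signal of 7 spermatocyte markers was higher, at 15.46 to 15.55 in Med22RNAi and 14.33 to 14.65 in wild type, but of its members only Rbp4 and mia rose, while topi (-1.61) was called lower with equal medians and 2 others also lay below wild type. On these arrays of whole testes alone, a change in the number of cells of a type and a change in RNA per cell cannot be told apart.

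The largest falls among genes with a name were of transcripts strong in wild-type testes, and 11 of 25 averaged under 3 in Med22RNAi, the other 14 between 3 and 6. These falls and the matching rises are given for the called probe set of each gene with the largest change, which was not its brightest one for 7 falls and 3 rises. fipi lay at 2.31, 2.19 and 2.13 in Med22RNAi testes, against 9.61, 9.99 and 10.07 in wild type. The nucleoside transporter gene CNT1 lay at 4.03, 3.99 and 4.36 in Med22RNAi and at 10.87, 11.44 and 11.13 in wild type. For both genes every Med22RNAi array was more than 6 log2 units below every wild-type array. fipi, under 3 on all Med22RNAi arrays, fell at least 119-fold (adjusted p = 1.21e-08 from limma), and CNT1 fell by 7.02 on the log2 scale (standard error 0.46, adjusted p = 2.67e-06). The 25 falls of this kind joined proteins of unlike function. Flagellar or microtubule genes were Dnah3 and Dhc16F, which encode dynein heavy chains, and t-Grip128, which encodes a form of a gamma-tubulin ring protein. Metabolic genes were Gpo3, a mitochondrial glycerol 3-phosphate dehydrogenase, PCB, pyruvate carboxylase, CAH5, a carbonic anhydrase, and Tpc2, a mitochondrial carrier. Ubiquitin ligase genes were Cul3, klhl10 and hiw. Tpc2 was lower by at least 76.8-fold, sac by at least 61.9-fold and neo, a zona pellucida domain gene, by at least 53.7-fold. Over the 25 genes the log2 fold change ran between -7.68 for fipi and -5.49 for fru, a transcription factor gene best known from the nervous system.

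For the 7 genes whose brightest probe set is another, that probe set fell less in 4 and was not called in 3, Cul3, PCB and pip. For Cul3, a cullin that serves sperm individualization in its testis form, 1 probe set averaged 2.99 in Med22RNAi and 9.96 in wild type, while the brighter one averaged 12.6 in Med22RNAi and 13.7 in wild type and was not called, at -1.11 (standard error 0.18). For PCB, the second probe set stood at 0.22 and was not called either. For fru, 2 of the other probe sets fell, by 5.46 and by 3.23, 1 other did not pass and 3 were under 3 on all 6 arrays. The brightest probe set of pip averaged 7.30 in Med22RNAi and 7.22 in wild type, and 7 of its 9 further probe sets were under 3 on all arrays and could show no fall. Drep3, lobo, ldd and Gpo3 fell on their second probe sets as well, by 3.05, 3.35, 4.38 and 2.15.

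The largest rises took transcripts from near the bottom of the scale in wild type to moderate or high levels in the knockdown. RpL22-like, which encodes a paralog of the large-subunit ribosomal protein RpL22, lay at 12.80, 13.06 and 13.05 in Med22RNAi and at 5.35, 5.16 and 5.68 in wild type. The log2 fold change of 7.57 (standard error 0.22, adjusted p = 6.1e-08 from limma) was the largest rise among genes with a name. Mo25, a scaffold of kinase complexes, lay at 9.27, 9.66 and 9.56 in Med22RNAi and at 2.96, 3.26 and 2.28 in wild type. Neither gene's groups came near each other. Nos, the nitric oxide synthase gene, rose at least 56.8-fold and Idua, which encodes a lysosomal iduronidase, at least 55.6-fold. Ect3, a gene for a lysosomal galactosidase, rose at least 52.2-fold. Genes of the nervous or endocrine system were in the same set of 25, namely unc-104, a kinesin that carries synaptic vesicle precursors (6.28), the neuropeptide gene CCHa1 (6.09) and IA-2 (at least 38.5-fold). RNA-binding and translation genes were there too, with Psi, a splicing regulator (5.80), Srrm234 (5.79), MCTS1 (5.77) and 1 probe set of B52, an SR protein gene (5.63). On the brightest probe sets B52 (3.16) and RhoGAP71E (3.52) rose less and Srrm234 (1.64) was not called. In the plot of the 25 largest named changes each way the Med22RNAi and wild-type points of a gene never overlap, which the rule for choosing these genes required.

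**Figure D1:**
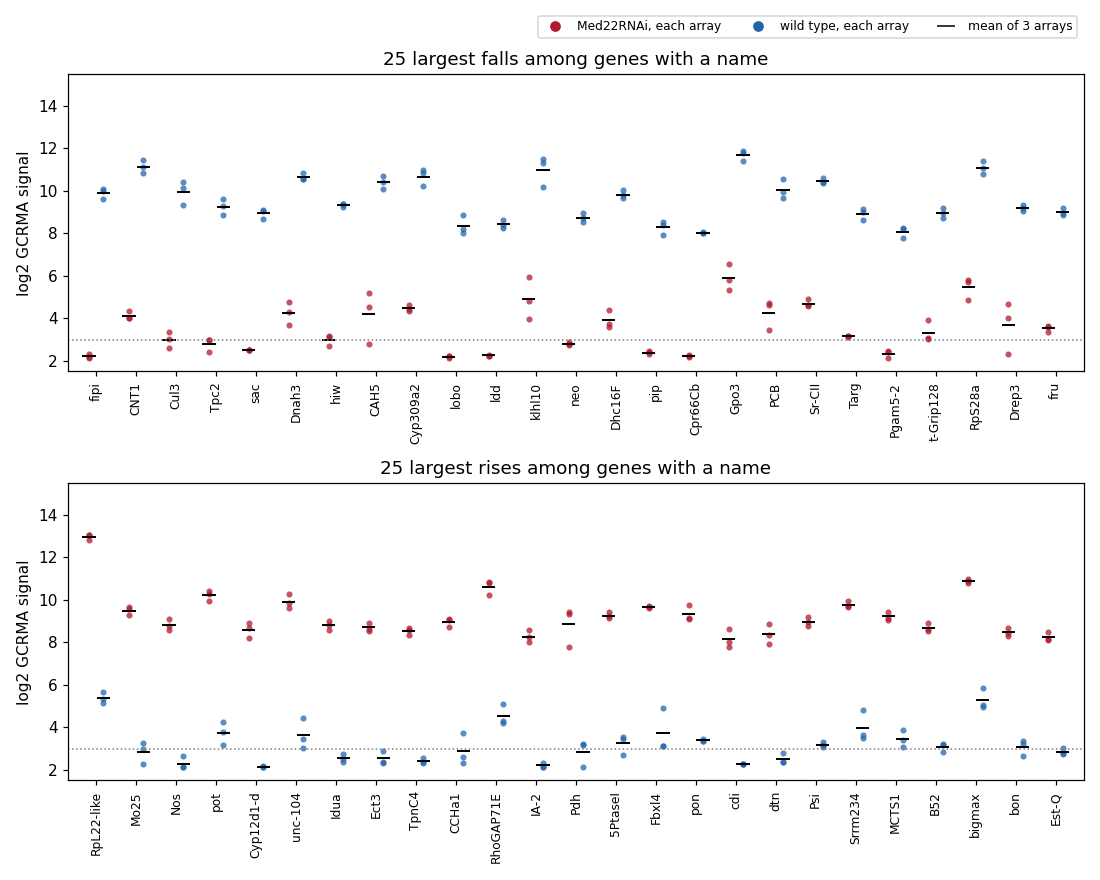
Log2 GCRMA signal (vertical axis) of the 25 genes with the largest falls (upper panel) and rises (lower panel), with the 3 Med22RNAi arrays left and the 3 wild-type arrays right of each gene name, a black bar at each mean, and a dotted line at a log2 level of 3. Most of the falling genes end between 2 and 6 in Med22RNAi, and most of the rising genes start between 2 and 6 in wild type.

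Genes known only by a number took a larger place among the falls than among the rises. Of the genes that fell, 1005 (68.7%) go by a CG or CR number or as a long noncoding RNA, against 504 (28.8%) of those that rose and 5307 (44.3%) of all genes. CG13675, singled out for the deepest fall among all genes after its values were seen, averaged 2.11 in Med22RNAi and 10.7 in wild type. Long noncoding and antisense RNA genes show the same side. Of 88 measured, 45 were under 3 on all 6 arrays, 17 fell and 1 rose. lncRNA:CR43097 averaged 2.54 in Med22RNAi and 9.92 in wild type, with all 3 Med22RNAi arrays under 3, and fell by 7.38 on the log2 scale (standard error 0.22). lncRNA:CR43904 and lncRNA:CR33948 were also under 3 on all Med22RNAi arrays, at averages of 2.3 and 2.4. The only rise, of lncRNA:CR42862 (2.21), did not stay called with equal medians, its 2 other probe sets stood at -1.11 and -1.01, and without Med22RNAi replicate 2 or wild-type replicate 3 it was lost as well. Antisense genes can overlap genes on the other strand, and a probe set's strand was not checked here.

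The sperm tail is built around an axoneme of microtubule doublets, moved by dyneins whose heavy chains include several encoded on the Y chromosome. Of 10 measured axonemal dynein heavy chain genes in the list 7 fell, and the other 3 were under 3 on all 6 arrays. Dnah3, named above, is not in the list and fell by 6.40. Dhc16F lay at 4.41, 3.74 and 3.60 in Med22RNAi and at 10.04, 9.79 and 9.65 in wild type, and Dhc62B at 5.87, 5.44 and 5.42 in Med22RNAi and at 9.71, 9.64 and 9.70 in wild type. No array of one genotype reached the range of the other for either gene. Their log2 fold changes were -5.91 (standard error 0.21) and -4.11 (standard error 0.17), and those of Dhc36C and Dhc98D were -3.52 and -3.50. The Y-linked genes kl-2, kl-3 and kl-5 were at the lowest level in Med22RNAi but varied in wild type, where replicate 3 read far lower than the others. kl-3, for example, lay at 2.11 on all 3 Med22RNAi arrays and at 7.03, 6.66 and 2.76 in wild type, a fall of at least 5.60-fold. With only the 6 arrays in the fit, or with values under 4 set to 4, the 3 kl genes were no longer called and the count was 4. kl-3 was also lost without wild-type replicate 1 or 2, and kl-2, whose groups overlap, without any 1 of 5 arrays. The median over the list was -3.01.

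Enzymes that modify tubulin also fell, while tubulins themselves did not pass the limit. Of 11 tubulin tyrosine ligase-like genes, whose products add glutamates or glycines to tubulin tails, 5 fell and 1 rose. TTLL1A lay at 6.86, 5.66 and 6.39 in Med22RNAi and at 10.27, 10.16 and 9.74 in wild type, and TTLL1B at 8.93, 7.73 and 8.08 in Med22RNAi and at 11.92, 12.06 and 11.77 in wild type. TTLL3B (-3.10), TTLL6A (-2.54) and TTLL4B (-2.04) fell too, each on every Med22RNAi array below every wild-type array. TTLL4A ran the other way, at 6.33, 6.97 and 6.60 in Med22RNAi and 2.61, 2.58 and 2.37 in wild type, a rise of at least 12.4-fold. Of 8 measured tubulins none was called, with 2 under 3 on all arrays and the rest between -0.89 for alphaTub67C and 1.25 for betaTub56D. betaTub85D, the beta tubulin of the male germ line, averaged 14.1 in Med22RNAi and 14.7 in wild type.

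Kinesins, motors along microtubules, split in both directions. Klp59C and Klp59D, of the microtubule-depolymerizing class, fell by 3.52 and by 3.72. Klp59D lay at 9.31, 9.04 and 9.41 in Med22RNAi and at 12.95, 12.99 and 12.98 in wild type, so that its wild-type arrays differed by less than 0.1. Of the 17 kinesins and kinesin-associated genes measured, 6 rose, and all 6 stayed called with equal medians. They were the genes unc-104 (6.28), Khc-73 (4.63), Kap3 (4.32), Klp98A (3.88), Klp68D (3.06) and Klp31E (2.95), several of which are known for the transport of vesicles and other cargo. Khc-73 lay at 11.07, 11.36 and 10.92 in Med22RNAi and at 6.96, 5.74 and 6.76 in wild type, and its second probe set rose by 4.92. Kap3 and Klp68D encode subunits of the same motor, kinesin-2. At the centriole, from which the tail grows, Cp110 (-3.48), Root (-2.91), ana2 (-2.35) and Cep89 (-2.15) fell among 14 genes, and Plp rose (2.87), as did Sas-4 (2.30), which was lost with equal medians. Of 22 intraflagellar transport and transition zone genes, which fly sperm tails are known to build without, 8 were under 3 on all arrays, Oseg1 (-3.22) and nompB (-2.94) fell, and IFT52 rose (2.32) only on the deposited scale.

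The vacuolar proton pump was divided within the complex. This pump acidifies membrane compartments, and most of its subunits have several genes in the fly. Of 31 measured, 9 fell, 2 rose and 20 did not pass, around a median of 0.54. Vha100-3 lay at 7.74, 6.97 and 7.52 in Med22RNAi and at 11.86, 11.96 and 11.99 in wild type, and Vha16-4 at 5.50, 5.06 and 5.50 in Med22RNAi and at 9.47, 9.89 and 10.14 in wild type. In both the knockdown arrays lay more than 3 log2 units below wild type, with falls of 4.53 (standard error 0.28) and 4.48 (standard error 0.18). Vha36-2 (-3.72), Vha16-2 (-3.61), Vha36-3 (-3.59), VhaAC45RP (-3.53), VhaM9.7-d (-3.53), VhaPPA1-2 (-3.31) and Vha14-2 (-2.23) fell as well. Forms of the same subunits that are not testis-biased stood above wild type without passing the 4-fold limit: Vha36-1 at 0.59, VhaPPA1-1 at 1.09, Vha14-1 at 1.54 and Vha100-2 at 1.67. VhaPPA1-1, for instance, lay at 13.16, 13.38 and 13.19 in Med22RNAi and at 12.12, 12.18 and 12.17 in wild type, without overlap. VhaSFD (2.26) and VhaAC45 (2.09) were called higher, but not with equal medians.

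**Figure D2:**
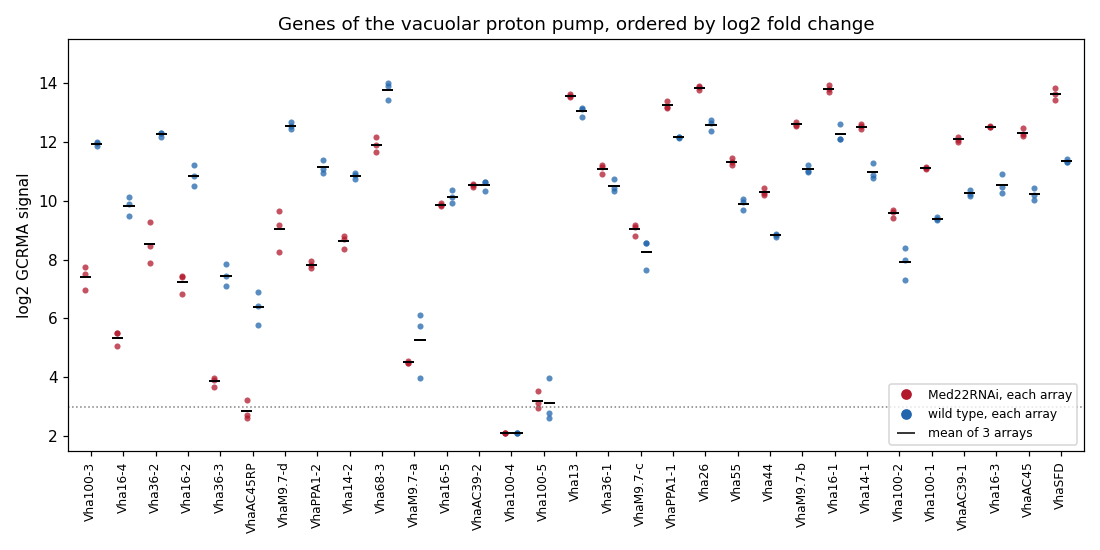
Log2 GCRMA signal (vertical axis) of the 31 measured genes of the vacuolar proton pump, ordered by log2 fold change, with Med22RNAi arrays left and wild-type arrays right of each name and a black bar at each mean. The 9 genes at the left fell by 2.23 to 4.53 on the log2 scale, and the 2 at the right rose by 2.09 and 2.26.

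The same split recurred between testis forms and general forms in other families, as followed in 30 pairs of related genes, of which 18 had both forms measured. The testis or germline form fell in 9 of the 18 pairs and rose in 2, while the general form fell in none and rose in 4, or in 3 with equal medians. Roc1b, the RING subunit of the testis Cul3 ligase, lay at 9.81, 9.12 and 9.54 in Med22RNAi and at 12.88, 12.89 and 13.03 in wild type, a fall of 3.44 (standard error 0.18). Its relative Roc1a rose by 3.13 (standard error 0.30), at 6.69, 7.09 and 6.74 in Med22RNAi and 3.60, 3.81 and 3.74 in wild type. Among 18 cullin ligase genes SkpF also fell, by 2.16, and Cul4 rose by 3.40. Both members of the Roc1 pair thus moved past 4-fold, in opposite directions. In carriers through the nuclear pore, Ntf-2r, alphaKap4 and Ran-like fell by 3.37, by 3.20 and by 2.54, while Ntf-2 (1.84), Kap-alpha1 (1.26) and Ran (1.08) lay above wild type on every array without reaching 4-fold. HP1e, a male germline member of the heterochromatin protein family, fell by 2.61, and the gene of HP1a, the general member, stood at 1.98. Hsp60B, a testis chaperonin, lay at 10.92, 9.92 and 10.32 in Med22RNAi and at 13.67, 13.85 and 13.44 in wild type, a fall of 3.27, whereas Hsp60A stood at 0.10 (standard error 0.10), or at -0.36 with equal medians. Counted by sign alone, 15 of the 18 pairs had the testis or germline form below 0 and the general form above 0. With equal medians 14 followed this pattern. Pairs that did not follow it were tomb and mip120, which rose by 2.97 and 3.25, PCNA2 (2.24, lost with equal medians) beside PCNA (1.18), and eIF4E3 (0.07) beside eIF4E1 (0.42), which both turned below 0 with equal medians. The sign count includes eIF4G2 (-0.11, standard error 0.49) and Hsp60A, whose arrays overlapped between genotypes. On the deposited scale the median over genes not under 3 on all 6 arrays was 0.48, against which general forms are to be read. Both forms were called in opposite directions for Roc1 and for Hex-t2 with Hex-A only, and with equal medians for Roc1 only. The other general forms called higher were eIF4G1, beside an uncalled eIF4G2, and mip120. Among germline forms whose general partner was not measured, RpL22-like, nxf2 and RpS5b (2.06, lost with equal medians) rose and CkIIbeta2 fell. The pairs were drawn up with results of these arrays known, so these counts describe them only.

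**Figure D3:**
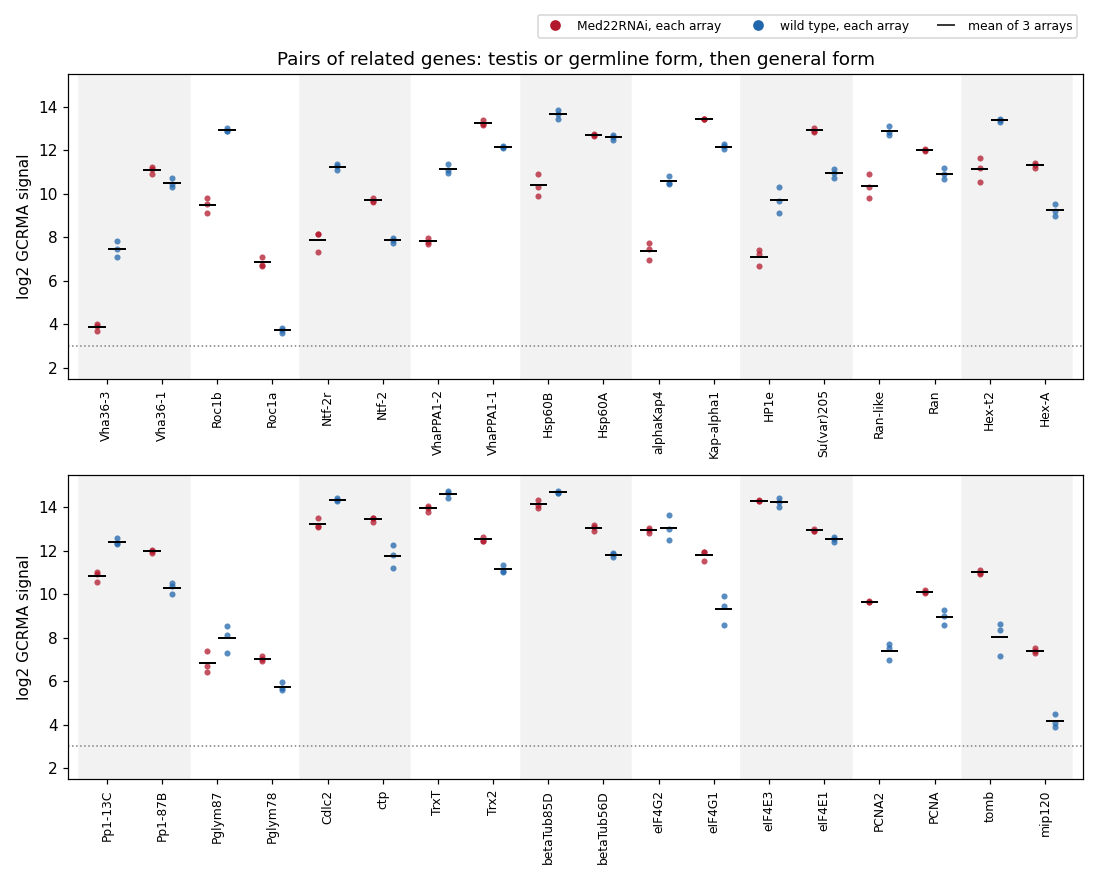
Log2 GCRMA signal (vertical axis) of the 18 pairs with both genes measured, the testis or germline form before the general form, ordered by the change of the first, with Med22RNAi arrays left and wild-type arrays right of each name and a black bar at each mean. In the 9 pairs of the upper panel the testis or germline form lies lower in Med22RNAi than in wild type, by 2.26 or more, while the general form lies level or higher, HP1a being drawn under its Su(var) symbol.

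Enzymes of glycolysis included some of the deepest falls. Of 19 measured glycolytic genes, 6 fell and 2 rose, around a median of -0.79. Hex-t1, a testis hexokinase, lay at 6.13, 5.48 and 6.09 in Med22RNAi and at 10.85, 11.13 and 11.32 in wild type, and fell by 5.20 (standard error 0.21). CG11249, listed with the glycolytic enzymes, lay at 7.61, 6.45 and 7.29 in Med22RNAi and at 12.27, 12.69 and 12.77 in wild type, and fell by 5.46. Neither gene's arrays overlapped between genotypes. CG12229 (-3.45), CG2964 (-2.91), CG7069 (-2.40) and Hex-t2 (-2.26) fell too. Hex-A, the general hexokinase, lay at 11.19, 11.42 and 11.31 in Med22RNAi and at 9.55, 9.23 and 8.97 in wild type, a rise of 2.06 that was lost with equal medians. Ald1, an aldolase gene, was called in both directions by its 2 probe sets, at 2.17 on the one (averages of 12.4 in Med22RNAi and 10.2 in wild type) and -2.27 on the other (11.4 in Med22RNAi and 13.6 in wild type), so no direction is given for the gene. With equal medians no glycolytic gene was called higher.

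Protein kinases and phosphatases of testis type fell beside general forms that did not. Of 16 phosphatase catalytic subunits 5 fell, among them Pp1-Y2 on the Y chromosome (-4.76), PpD6 (-4.01), PpD5 (-3.75), PpY-55A (-3.72) and PpN58A (-3.35). PpD5 lay at 7.74, 7.27 and 7.79 in Med22RNAi and at 11.11, 11.34 and 11.59 in wild type. Pp4-19C, the catalytic subunit of protein phosphatase 4, rose, at 11.10, 11.37 and 11.24 in Med22RNAi and 7.02, 7.72 and 8.06 in wild type, by 3.63 (standard error 0.24). Of 10 casein kinase and related genes CG2577 (-3.62), CG7094 (-2.91) and CkIIbeta2 (-2.63) fell, and 4 rose. Of these rises CkIIalpha-i3 (3.46), a related gene and not a kinase, and dco (2.62), the clock kinase, stayed called with equal medians. Of 14 cyclases, which make the second messengers cAMP or cGMP, ACXB fell by 4.22 and ACXC by 2.07, while Ac13E and Ac76E rose by 4.38 and 4.14. ACXB lay at 4.94, 4.65 and 4.96 in Med22RNAi and at 9.03, 9.42 and 8.76 in wild type. Ac76E lay at 6.95, 7.17 and 7.24 in Med22RNAi and at 3.02, 2.90 and 3.02 in wild type. Neither gene's arrays overlapped between genotypes, and the changes ran in opposite directions.

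Transporters of small molecules at membranes leaned to the lower side. Of 27 measured, 8 were under 3 on all arrays, 7 fell and 2 rose. After CNT1 the deepest falls were of Tret1-2, a trehalose transporter, at 4.53, 3.92 and 4.08 in Med22RNAi and 8.66, 9.13 and 8.79 in wild type (-4.69), and of Oatp33Ea, an organic anion transporter, at 4.30, 4.42 and 4.08 in Med22RNAi and 8.29, 8.40 and 8.35 in wild type (-4.08). The sugar transporter genes sut3 (-3.82) and sut4 (-3.07) fell too. Within the same families Oatp74D, which imports the steroid hormone ecdysone, rose by 3.30, and Tret1-1 by 2.38, the second of these not with equal medians. Of 100 cuticle protein genes, 74 were under 3 on all arrays, 9 fell and 1 rose. Cpr66Cb lay at 2.22, 2.17 and 2.25 in Med22RNAi and at 8.03, 8.01 and 8.08 in wild type, a fall of at least 32.9-fold, and 4 more, Cpr65Ec, Cpr92A, Cpr78Cc and Cpr31A, were also under 3 on all Med22RNAi arrays. In wild type these 5 genes averaged between 5.7 and 8.0. Twdlalpha (-3.52) and Cpr56F (-3.33) fell from higher levels. Of 212 chemosensory receptor and odorant-binding protein genes, 173 were under 3 throughout, 8 fell and 3 rose, the highest rise being that of the ionotropic receptor gene Ir11a (5.26). Of 51 neuronal adhesion and synapse genes, 30 were under 3 on all arrays, 5 fell and 4 rose, with brp, a component of presynaptic active zones, at -3.55 and unc-13, which readies synaptic vesicles for release, at 4.32.

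**Figure D4:**
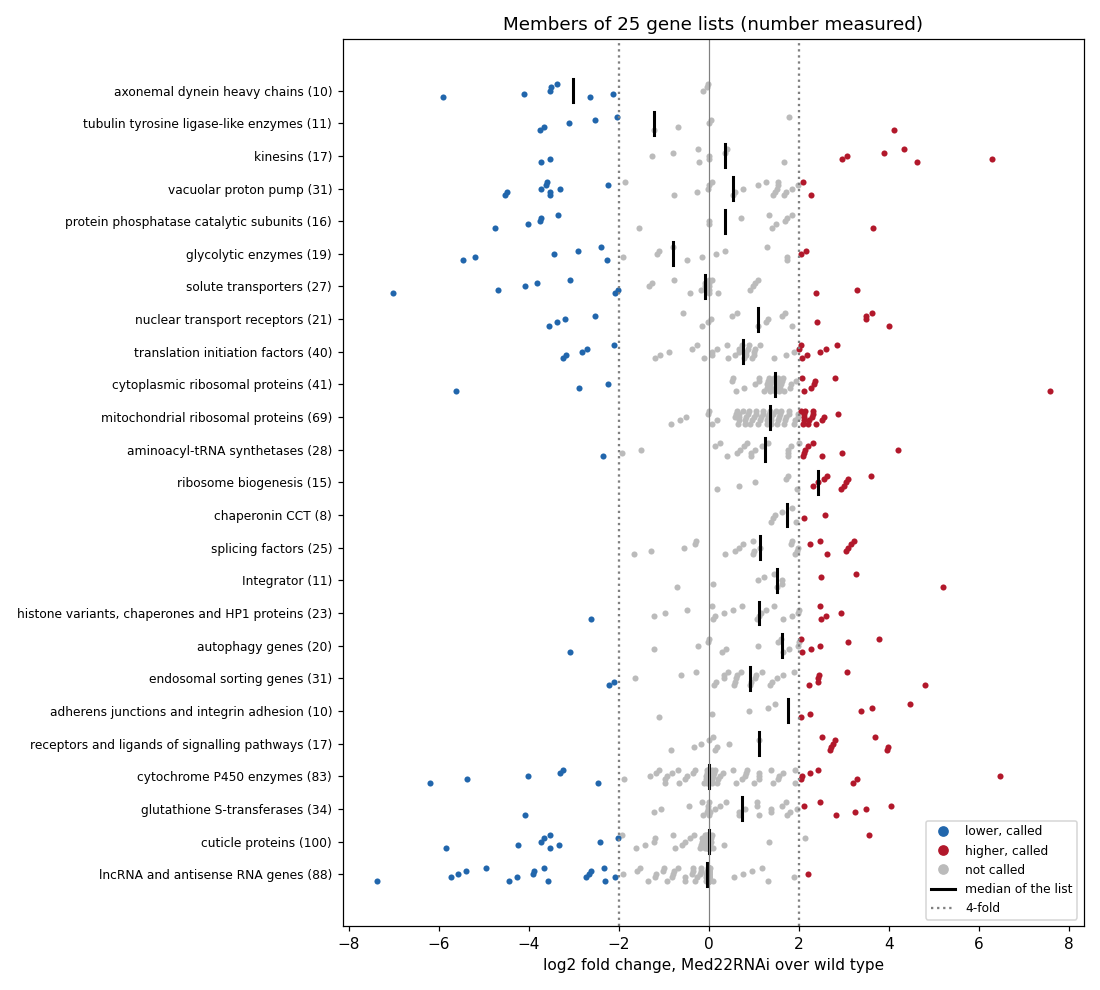
Log2 fold change of Med22RNAi over wild type (horizontal axis) for every measured gene of 25 lists, with called falls in blue, called rises in red, other genes in grey, a black bar at the median of each list and dotted lines at 4-fold. Axonemal dyneins, tubulin tyrosine ligase-like enzymes, the proton pump, phosphatases, glycolytic enzymes and transporters have most of their called genes at the left, kinesins, ribosome biogenesis, splicing and Integrator have theirs at the right, and translation initiation factors, nuclear transport receptors and cytochrome P450 enzymes have both.

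Among rising groups, ribosome biogenesis stood highest in its median. These genes assemble ribosomal subunits in the nucleolus. Of 15 measured, 9 rose and none fell, around a median of 2.42, and 7 stayed called with equal medians. Nopp140, a nucleolar phosphoprotein, lay at 10.82, 10.99 and 10.94 in Med22RNAi and at 7.62, 7.25 and 7.10 in wild type, a rise of 3.60 (standard error 0.17, adjusted p = 4.31e-07 from limma). Surf6 lay at 8.71, 8.93 and 8.91 in Med22RNAi and at 5.71, 5.76 and 5.79 in wild type, a rise of 3.10. The kinase genes RIOK2 (3.06) and RIOK1 and the box C/D protein gene Nop56 rose as well, and no arrays overlapped for any of these. Ribosomal proteins themselves moved less. Of 41 cytoplasmic ones measured under a symbol of their own, out of 93, 7 rose and 3 fell around a median of 1.46, and with equal medians 2 rose, RpL22-like and RpL27 (2.80). The falls were of 3 paralogs, RpS28a, RpS28-like and RpL10Aa. RpS28a lay at 5.81, 4.86 and 5.71 in Med22RNAi and at 10.80, 11.06 and 11.40 in wild type, a fall of 5.62, and RpS28-like fell by 2.89 and RpL10Aa by 2.25. Of 69 mitochondrial ribosomal proteins none fell and 15 rose, which became 3 with equal medians and 8 without wild-type replicate 1.

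Some translation factors repeated the split between forms. Of 40 initiation factor genes 5 fell and 7 rose, near the shares of 12.2% and 14.6% over all genes. With equal medians 3 of the rises stayed, a share below the 9.47% of all genes. eIF3d2 lay at 9.68, 8.84 and 9.23 in Med22RNAi and at 12.35, 12.52 and 12.36 in wild type (-3.16), while eIF3d1 lay at 12.20, 12.33 and 12.36 in Med22RNAi and at 10.32, 10.08 and 10.46 in wild type (2.01). eIF3g2 fell by 3.24 and eIF3g1 rose by 2.06. The rises of eIF3d1 and eIF3g1 were not called with equal medians, the falls of their partners were. eIF4H2, eIF4E4 and eIF4E7 also fell, and eIF2Bepsilon, part of the exchange factor that recharges eIF2, rose by 2.84. Without Med22RNAi replicate 2, or without wild-type replicate 2, 4 initiation factors instead of 7 were called higher. Of 28 aminoacyl-tRNA synthetases 8 rose, 3 of them with equal medians, and these 3, TyrRS-m (4.20), MetRS-m (2.96) and LeuRS-m (2.51), are mitochondrial, while the mitochondrial CysRS-m fell by 2.35. All 8 measured genes of the chaperonin CCT, which folds actin and tubulin, stood above wild type around a median of 1.74, but only 2 passed the limit, and 1 did with equal medians or without wild-type replicate 1.

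RNA processing in the nucleus rose in part. Of 25 splicing factors none fell and 7 rose, 6 of them also with equal medians. Prp8, the central protein of the spliceosome, lay at 9.98, 10.20 and 10.06 in Med22RNAi and at 6.77, 6.76 and 7.07 in wild type, a rise of 3.21 (standard error 0.14). B52 (3.16), Sf3b3, Prp19, Sf3b2 and Sf3a1 rose too, while factors such as U2af50 and SmD1 stayed under 4-fold. Of 11 Integrator subunits, which process small nuclear RNAs and end transcripts at promoters, 3 rose under both scales. IntS14 lay at 9.97, 10.06 and 9.78 in Med22RNAi and at 3.77, 5.08 and 5.37 in wild type, a rise of 5.20 (standard error 0.43), and IntS6 (3.26) and IntS8 (2.49) followed. Of 21 nuclear transport receptors and related genes, 5 rose and 4 fell. The export receptor emb lay at 12.20, 12.57 and 12.33 in Med22RNAi and at 8.78, 8.32 and 8.02 in wild type, a rise of 3.99. Tnpo (3.62), Tnpo-SR (3.50) and nxf2 (3.49), a germline relative of export factors, rose beside emb. nxf4 lay at 8.47, 7.93 and 8.21 in Med22RNAi and at 11.49, 11.89 and 11.85 in wild type, and fell by 3.54. Of 23 nuclear pore proteins 5 rose, 2 of them with equal medians, and of 21 exosome and related genes 3 rose, none of them with equal medians and 1 without wild-type replicate 1. Histone chaperones rose under both scales in 4 cases, Nap1 (2.94), Ssrp (2.59), dre4 (2.50) and Nph (2.47), of 23 genes of histone variants, chaperones and HP1 proteins.

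Receptors of signalling pathways formed the list with the most rises that did not depend on the scale, 8 of 17 measured, with none lower. Of these, 6 belong to the TGF-beta superfamily. The type II receptor genes wit and put rose by 3.95 and 2.80, the type I receptor genes babo, sax and tkv by 3.69, 2.72 and 2.52, and the ligand gene dpp by 2.76. wit lay at 8.98, 9.37 and 9.36 in Med22RNAi and at 5.17, 5.32 and 5.38 in wild type (standard error 0.13, adjusted p = 9.09e-08). put lay at 10.08, 10.40 and 10.39 in Med22RNAi and at 7.25, 7.68 and 7.55 in wild type, and dpp at 7.47, 7.95 and 7.44 in Med22RNAi and 4.67, 5.33 and 4.60 in wild type. All 6 had Med22RNAi arrays wholly above wild type. The insulin receptor gene InR (3.99) and smo (2.69), the transducer of Hedgehog, were the other 2. The ligand genes gbb, spi and hh and the receptor genes Egfr and dome did not pass. Dpp signals between somatic cyst cells and spermatogonia are known to act at the start of the lineage, and some markers of those cells moved as well. bam, the gene that ends spermatogonial divisions and whose promoter drives Gal4 in the knockdown, lay at 9.21, 9.30 and 9.14 in Med22RNAi and at 3.83, 5.52 and 4.96 in wild type, and zfh1, of early cyst cells, at 6.29, 6.70 and 6.28 in Med22RNAi and 2.82, 2.26 and 2.25 in wild type. The summed signal of 5 cyst cell markers ran from 9.98 to 10.67 in Med22RNAi and from 9.29 to 10.06 in wild type, with overlap, the gene so (-1.42) among them was not called and tj was under 3 on all arrays. The summed signal of 5 germline stem cell and spermatogonial markers ran from 10.76 to 10.83 in Med22RNAi and from 10.52 to 10.88 in wild type, also with overlap, with bgcn at -0.74 and not called and vas under 3 on all arrays. The part of these cells in the rises was not tested.

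**Figure D5:**
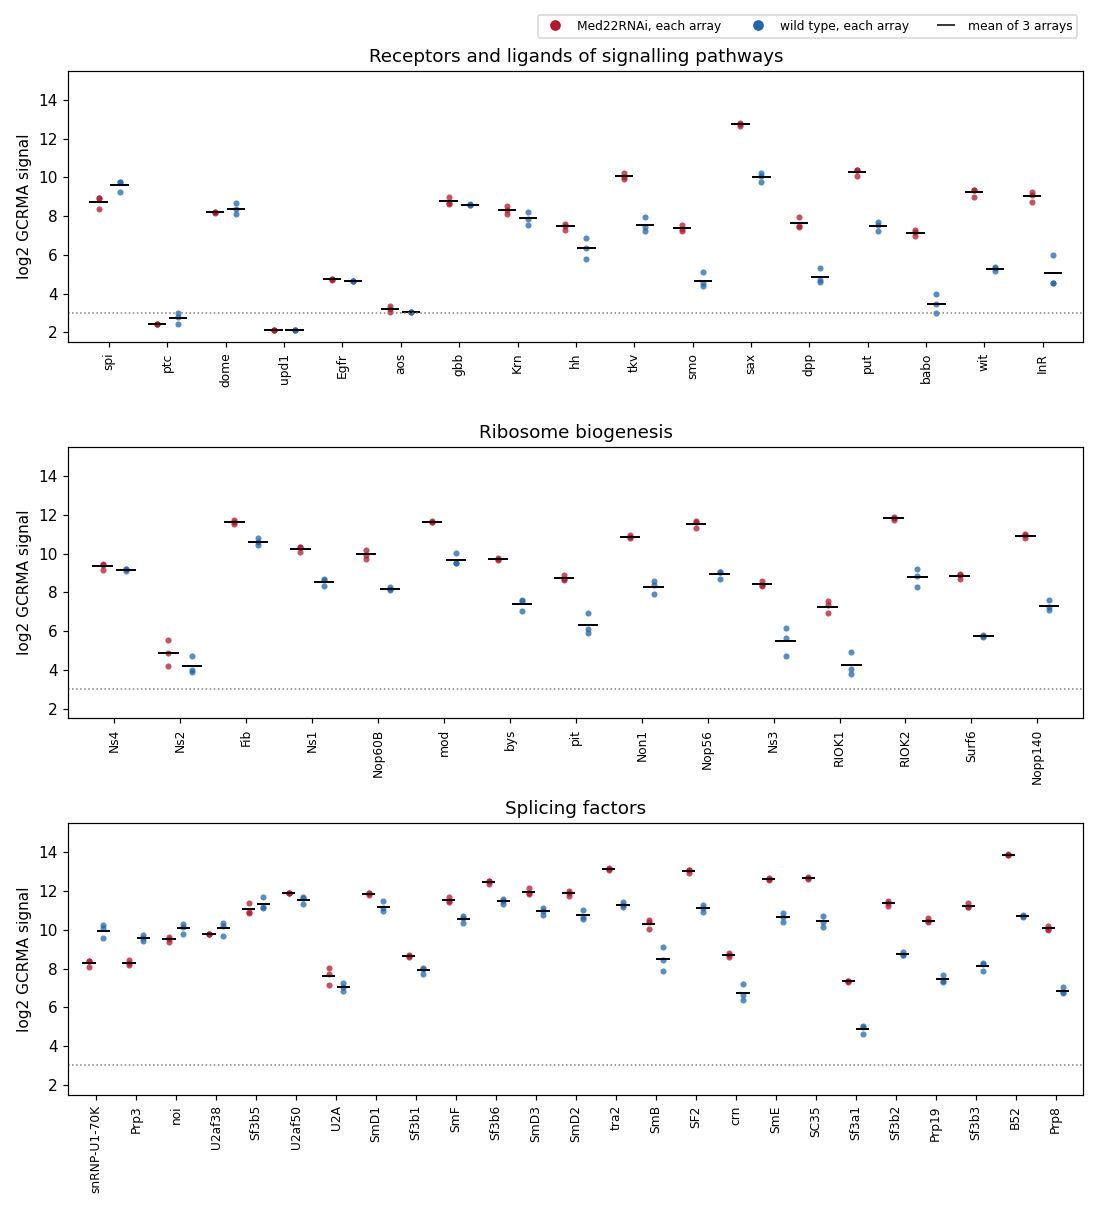
Log2 GCRMA signal (vertical axis) of the measured genes of 3 lists, receptors and ligands of signalling pathways (17 genes), ribosome biogenesis (15) and splicing factors (25), each ordered by log2 fold change, with Med22RNAi arrays left and wild-type arrays right of each name and a black bar at each mean. The called rises, 8, 9 and 7 genes, lie at the right of each panel with Med22RNAi arrays wholly above wild type.

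Adhesion genes, which act mostly in somatic cells, rose in 5 of 10 cases without a fall, and in 3 with equal medians. These 3 were the integrin genes mew (at least 20.2-fold) and if (3.62) and the muscle attachment gene Zasp52 (3.37). mew lay at 7.16, 7.67 and 7.17 in Med22RNAi and at 2.89, 2.80 and 2.89 in wild type. Its second probe set stood at 1.97, or at 1.51 with equal medians, and was not called on either scale. Septate junction genes rose in 5 of 17 cases and in 2 with equal medians, l(2)gl (3.22) and dlg1 (2.74). Some markers of other cell types moved as well. The summed signal of 4 sheath muscle markers was 10.95 to 11.44 in Med22RNAi and 8.50 to 10.02 in wild type. Only Mlc2 among them was called, up by 4.36, while Tm2 stood at 1.28 and TpnC41C was under 3 on all Med22RNAi arrays. For 6 hemocyte markers the sum was 11.51 to 11.89 in Med22RNAi and 9.12 to 9.51 in wild type. Pxn (3.26) and Col4a1 (2.92) were called, Hml (1.36) and NimC1 (0.72) were not, and eater was under 3 on all arrays. The hemocyte sum rests mostly on Col4a1, at 11.04 to 11.60 in Med22RNAi. Of the 4 accessory gland markers, summed at 12.54 to 14.69 in Med22RNAi and 12.73 to 16 in wild type, none was called although the gland had been dissected away. Of 6 fat body markers Yp1, Yp2 and Yp3 were under 3 on all arrays and Lsp2 (-3.15) was the one called. Their summed signal was 9.57 to 9.97 in Med22RNAi and 11.42 to 12.26 in wild type. This sum rests mostly on apolpp (-1.97, called with equal medians), which was also called lower in aly (-7.6) and in sa (-3.2). The sum therefore gives no measure of fat body tissue. Without a called member, summed signals were also higher for ejaculatory duct and bulb, at 13.45 to 13.85 in Med22RNAi and 11.72 to 12.35 in wild type, for pigment cells, at 6.91 to 7.47 in Med22RNAi and 5.19 to 5.80 in wild type, and for the hub, at 7.48 to 7.77 in Med22RNAi and 6.65 to 7.32 in wild type. EbpII was under 3 on all arrays, so the duct and bulb sum rests on EbpIII (1.66). The pigment cell genes st and cn were under 3 as well, which leaves Sox100B (1.97). In the hub upd1 was under 3 on all arrays, and members ran between -1.11 and 1.12. These sums are on the deposited scale. The gut trypsin markers were under 3 on all arrays. Whether the rise in adhesion genes comes with any change in the share of muscle or blood cells was not tested.

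Rises among membrane traffic and degradation genes depended largely on the scale. Of 20 autophagy genes 6 rose, 3 of them with equal medians, Atg4a (3.78), Atg17 (3.08) and Atg4b (2.46), and the testis form Atg8b fell. Atg4a lay at 11.46, 11.63 and 11.32 in Med22RNAi and at 7.69, 7.73 and 7.65 in wild type, and Atg8b at 11.41, 10.42 and 10.91 in Med22RNAi and at 13.76, 14.05 and 14.18 in wild type. Atg4 proteins are the proteases that process Atg8, and the 2 genes moved in opposite directions here. Of 31 endosomal sorting genes 6 rose, 2 of them with equal medians, Vps50 (4.80) and Vps16A (3.08), and Vps13D (-2.22) and Vps13B (-2.10) fell, of which Vps13B was lost without Med22RNAi replicate 2 or wild-type replicate 1. With equal medians 3 endosomal sorting genes fell. Of 10 genes of COP coats, which shape vesicles between the endoplasmic reticulum and the Golgi apparatus, 3 rose, none of them with equal medians and 1 without wild-type replicate 2. Of 20 Rab GTPase and related genes 3 rose and 1 fell, and with equal medians none rose and 2 fell. Rab9Fb, an X-linked Rab gene, lay at 5.23, 4.97 and 5.03 in Med22RNAi and at 8.95, 9.40 and 9.51 in wild type, and fell by 4.21.

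Detoxification enzymes moved both ways at the single-gene level. Of 83 cytochrome P450 genes, 33 were under 3 on all arrays, 6 fell and 7 rose, 3 of the rises staying with equal medians. Both shares were below the 12.2% lower and 14.6% higher over all genes. Cyp309a2 lay at 4.61, 4.35 and 4.46 in Med22RNAi and at 10.22, 10.84 and 10.96 in wild type (-6.20), while Cyp12d1-d, a mitochondrial P450 known for insecticide resistance, lay at 8.21, 8.67 and 8.92 in Med22RNAi and at 2.16, 2.12 and 2.12 in wild type, a rise of at least 48.5-fold. Cyp28d2 (-5.36) and Cyp310a1 (-4.01) fell, and Cyp6a17 (3.30) and Cyp6a20 (3.21) rose. Of 34 glutathione S-transferases 6 rose, 5 of them with equal medians, and 1 fell. GstD5 lay at 12.11, 11.98 and 12.28 in Med22RNAi and at 7.83, 8.38 and 8.01 in wild type (4.05), GstD2, GstE5 and GstD3 rose by 3.50, 3.24 and 2.83, and GstE10 fell at least 14.4-fold. Strains of flies differ in such enzymes, and strain and knockdown cannot be told apart on these arrays.

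Transcription factors of development were called both ways, to be read against 12.2% lower and 14.6% higher over all genes. Of 13 homeotic and patterning genes, 6 were under 3 on all arrays and 2 fell, tio at 4.66, 4.09 and 4.58 in Med22RNAi against 8.80, 8.90 and 8.56 in wild type, and inv at 3.57, 3.96 and 3.57 in Med22RNAi against 7.97, 7.79 and 7.56 in wild type. Both are known for roles in segment or eye patterning, and their log2 fold changes were -4.31 and -4.07. Of 23 nuclear receptor and ecdysone response genes 5 rose, 3 of them with equal medians, led by Eip93F (4.94), and eg fell (-2.56). Eip93F varied in wild type, at 4.32, 2.36 and 2.25 against 7.60, 8.12 and 8.02 in Med22RNAi, still without overlap, and ftz-f1 rose by 2.93.

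Called genes often lay beside each other on the chromosomes of the release 6 assembly. Of 1449 placed genes that fell, 531 (36.6%) had a measured neighbour that also fell, against 22.1% of all 11893 placed genes. Of 1748 that rose, 548 (31.4%) had a neighbour that rose, against 26.9% of all. The longest run of measured genes that all fell had 9 members on arm 2L and ended with tio. It began with CG11629, which averaged 3.70 in Med22RNAi and 9.47 in wild type, and held lncRNA:CR44217. Its median log2 fold change was -3.77. Runs of 7 lay on 2R, with Pgam5-2 (at least 33.7-fold), and at 2 places on X, one of them holding CG12692, which averaged 4.67 in Med22RNAi and 10.4 in wild type. In a run of 5 on 2R, Klp59C and Klp59D flanked 3 genes that include Gpdh2 (-2.27), a glycerol 3-phosphate dehydrogenase gene, and in another of 5 on 2L the dynein gene Dhc36C stood at one end and the casein kinase gene CG7094 at the other. Runs of rising genes were no longer than 4, such as rin, Rbp4, Hrb87F and B52 on 3R. Neighbours can overlap or be copies of each other, and no test of the runs was made.

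Arms of the large chromosomes had similar shares, with 11.3% to 14.6% of their genes lower, most on 2L, and 14.3% to 15.1% higher. Chromosome 4, a small chromosome that is largely heterochromatic, had fewer falls and more rises. Of its 65 measured genes 3 fell (4.62%) and 16 rose (24.6%), or 15.4% with equal medians against 9.0% to 9.7% on the large arms. Its share of lower genes at equal medians was 6.15%, against 13.9% to 18.1% on the large arms. Rnf11 averaged 10.8 in Med22RNAi and 5.68 in wild type (5.11) on 1 probe set and was not called on the other (1.58), and the rises included unc-13 (4.32), Zip102B (4.06), ci (3.31), the transcription factor of the Hedgehog pathway, and Sox102F (3.30). All 4 measured genes placed on the Y chromosome fell, namely Pp1-Y2, ORY, Ppr-Y and kl-2. The groups of kl-2 overlap and its call depends on single arrays, as given above. The Y-linked genes kl-3 and kl-5 are not among these 4.

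A few of the largest changes were checked directly against the aly and sa mutants, whose spermatocytes are likewise described as arrested. The genes were chosen for their change in Med22RNAi and, most of them, for a difference from the mutants. These values describe them and do not sample the genome. Among the 25 largest named falls, all but hiw and Sr-CII were also called lower in aly. All but Cyp309a2 (-0.96 in sa) and Dhc16F (-1.51 in sa) were called lower in sa. Several of the largest named rises, such as Mo25, Nos and Idua, were called higher in both mutants. hiw averaged 2.99 in Med22RNAi, 8.27 in aly and 4.64 in sa, and was lower than in aly by 5.28 (adjusted p = 2.55e-07 from limma). Sr-CII, a scavenger receptor gene, averaged 4.69 in Med22RNAi, 9.17 in aly and 8.19 in sa, lower than in aly by 4.48 and than in sa by 3.50. Cyp12d1-d, cdi, IA-2 and RhoGAP71E rose in Med22RNAi and stood between -0.01 and 0.82 against wild type in both mutants. For cdi, a kinase gene, the direct difference was 5.84 from aly (adjusted p = 2.75e-08) and 5.75 from sa (adjusted p = 1.23e-07). RpL22-like averaged 12.97 in Med22RNAi, 12.63 in aly and 10.95 in sa.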

How the data were processed

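Testis RNA of 12 samples was hybridised to Affymetrix Drosophila Genome 2.0 arrays, 3 arrays per genotype. The deposited values are log2 signals that, per the labels, the authors obtained with GCRMA, which models background from probe sequence, normalizes by quantiles and summarises probe sets. The version and whether all arrays were processed together are not given in the sources used here, and array medians were not equal. Of 18952 rows, 183 controls were left out. Probe sets were named through the platform annotation, with 13647 having 1 symbol, 402 several and 4720 none, and 13544 of the symbols matched RefSeq genes, which also gave chromosome and order.

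All 12 arrays were fitted with limma 3.58.1 (lmFit and eBayes, R 4.3.3), with a mean per genotype, 8 residual degrees of freedom and Benjamini-Hochberg adjustment over all probe sets. A call needed an adjusted p under 0.05 and a log2 fold change of at least 2 either way. Where every array of a group was under 3, the fold is a lower bound, with that group set at 3. The fit was first checked on simulated arrays. Tables used pandas 2.3.3 under Python 3.11.15, and plots matplotlib 3.10.9. Nothing says that arrays of a genotype hold separate animals, other than for Med22RNAi, so p-values measure the spread between arrays, which may be partly technical. The number of arrays limits the precision.

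Named were the 25 largest falls and 25 largest rises among called probe sets, 1 per gene, without overlap and with a name other than a CG or CR number, and up to 5 called genes each way in each list. Other genes named, such as further list members, genes on chromosome 4 and members of runs, were chosen after their values were seen. Members, lists and pairs were chosen with earlier results of these data known, so lists are described by counts and medians with no test. Lists of testis-specific mitochondrial, proteasome, Mediator and TFIID genes and sequences of genes or promoters were not used here. Alternatives were a fit of 6 arrays, a replicate block, a repeated quantile normalization, equal array medians, removal of dim probe sets, a floor, other limits of p and fold, a variance trend, 1 probe set per gene and leaving out each array.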

Additional observations from a re-analysis of the deposited data

How the results depend on the processing

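The counts of called probe sets, 1693 lower and 2126 higher, moved most with the scale and with the fold limit. With array medians set equal, 1395 were higher and 2135 lower, and after a further quantile normalization 1727 were higher and 1851 lower. A 2-fold limit gave 2582 lower and 4302 higher. Leaving out each array in turn gave between 1585 and 1746 lower and between 2019 and 2231 higher. A floor at a log2 value of 4 gave 1569 lower and 1909 higher, and the fit of the 6 arrays alone 1672 and 2114. With the replicate number as a block, 1690 were lower and 2122 higher. The numbers do not pair the samples, since the deviations of Med22RNAi and wild-type arrays of the same number correlated at 0.134, 0.193 and -0.077.

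Of the 86 counts of called list members, 51 stayed within 1.5 times with equal medians and 35 did not, against 73 and 13 after quantile normalization and 74 and 12 with the floor. Each array left out in turn changed 46 of 516 such values by more than that. Beyond those in the report, casein kinase and related genes called higher went to 2 without wild-type replicate 3, histone chaperones to 7 without wild-type replicate 3, and centriole genes called higher to 1 without wild-type replicate 1. The quantile normalization left 4 of 8 aminoacyl-tRNA synthetases, 3 of 5 nuclear receptor and ecdysone genes and 3 of 7 cytochrome P450 genes called higher. The causes were not tested.

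Of 264 values for named genes, 242 kept direction and call with equal medians, and 8 that were not called changed sign. These were Hsp60A (-0.36), eIF4E1 (-0.042), eIF4E3 (-0.39), Egfr (-0.37), U2af50 (-0.11), gbb (-0.29), and the second probe sets of PCB (-0.24) and pip (-0.38). After quantile normalization the sign changed for eIF4E3 (-0.066), Egfr (-0.52), gbb (-0.18) and the second probe set of pip (-0.54). With each array left out, eIF4E3 ran between -0.041 and 0.168 and the second probe set of pip between -0.42 and 0.42. Near the 4-fold limit, ACXC, Hex-t2, RpL10Aa, TTLL4B, SkpF, Vps13B and the second probe set of Gpo3 lost their calls without 1 array, as did Hex-A, VhaAC45, Sas-4, eIF3d1 and eIF3g1. Cpr31A, Cpr78Cc, Cpr92A, Cyp6a17 and eg lost theirs with the floor, which by construction shrinks changes of dim genes.

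Signals under a log2 value of 3 are near the bottom of the scale, and 23.3% of genes lay there on all 6 arrays, so changes in them could not be seen. With 3 arrays per genotype, 1 driver and 1 hairpin, and controls from an earlier set of arrays, knockdown, driver, strain and array set cannot be told apart.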
